A study of Mus musculus with 7 samples.

Results

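The genes described here encode the proteins with which mouse cells display antigen to T cells. They are the probes of an expression array whose gene name begins with H2-, the mouse MHC prefix, or is B2m, Tap1, Tap2, Tapbp, Erap1, Cd74 or Ciita. Control spots were left out. This rule gave 62 of the 55681 probes on the array, carrying 48 of its 34797 gene names (some of these are only transcript IDs). Of these probes, 44 were bright enough to be tested, which required a signal well above background on 3 or more of the 7 arrays, and they stand for 36 genes. The remaining 18 probes were too dim. For 12 names no probe could be tested: H2-Ea-ps, H2-Eb2, H2-DMb2, H2-M1, H2-M10.1, H2-M10.2, H2-M10.3, H2-M10.4, H2-M10.6, H2-M5, H2-Q1 and H2-T3.

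MHC class I molecules are made by nearly all nucleated cells and show peptides from the cytosol to CD8 T cells. Their heavy chain pairs with B2m, and the peptides are carried into the endoplasmic reticulum by the TAP transporter. Class II molecules show peptides from endosomes to CD4 T cells, and in the mouse they are made chiefly by dendritic cells, macrophages and B cells. NLRC5 drives class I transcription and CIITA that of class II.

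The samples were CD8 T cells from lymph node of mice that carried 1 copy of the OT-1 T cell receptor transgene on a Rag-/- background, so that the only expected receptor recognises the ovalbumin peptide SIINFEKL on the class I molecule Kb. The cultures received 100 nM of this peptide for 24 h. The 4 WT samples had this background alone, and the 3 Lck-/- samples also lacked endogenous Lck, the kinase that starts T cell receptor signalling. Their introduced Lck had been turned off by 7 days without doxycycline in the diet, and the labels name no such feeding for WT, so that diet, construct and loss of Lck cannot be told apart. Neither the promoter of the construct nor a purification of the T cells is given in the sources used here. The series calls the samples biological replicates.

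Values are log2 of the background-subtracted spot signal minus the array's 75th percentile, so that 0 is that percentile. Differences are Lck-/- minus WT on this scale, p-values are two-sided from limma, and adjusted p-values cover all probes tested. All 7 arrays lay on 1 slide, 46.57% to 61.06% of spots were well above background, and saturation was absent. The non-uniform spots were most numerous on WT 3 (1403) and Lck-/- 1 (422), with 1 to 144 elsewhere, and none of the 308 member values was missing. The Lck probe did not follow the labels. It read 7.44, 7.67, 7.36 and 6.04 on WT 1 to 4 and 8.02, 6.21 and 6.17 on Lck-/- 1 to 3, so WT 4 was lowest and Lck-/- 1 highest. The deleted stretch of Lck is not described, and whether the probe lies outside it was not tested. Whether the labels of WT 4 and Lck-/- 1 are exchanged was not tested either. With those labels exchanged, the H2-K1 values given below would overlap between the groups. Every direction and every statement on overlap below is between arrays as labelled and rests on the labels. Group values are also given without WT 4 and Lck-/- 1. All 6 CD8 T cell markers (Cd3d, Cd3e, Cd3g, Cd247, Cd8a and Cd8b1) were well above background on all 7 arrays. This alone does not identify the cells. Some markers of B cells (Cd79b), NK cells (Tyrobp) and dendritic cells (Flt3) were well above background on all 7 arrays too.

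No probe differed between the groups after adjustment, which is 0% of the 29272 probes tested with limma. At an unadjusted p under 0.05 there were 1991 probes (6.8%), of which 1560 were higher on the Lck-/- arrays (5.33% of all) and 431 lower (1.47%). Among the 44 member probes 0 passed after adjustment, 18 were higher at an unadjusted p under 0.05 (40.9%) and 0 lower. The groups did not overlap, with all Lck-/- arrays above all WT arrays, for 17 member probes (38.6%) against 5.8% of all probes. The reverse order was seen for 0 member probes and for 1.71% of all. A positive difference was found for 42 of the 44 (95.5%), against 62.1% of all probes, whose median difference was 0.07. The 18 became 6 without WT 1, 10 without WT 3, 7 without Lck-/- 1 and 7 without Lck-/- 3, and 12 without both WT 4 and Lck-/- 1. Scaling moved the share of higher probes among those at an unadjusted p under 0.05. It was 78.4% here, 62.1% after quantile normalization, 60.9% after normexp with quantile normalization, 53.3% in the deposited values and 31.2% relative to each array's median.

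**Figure D1:**
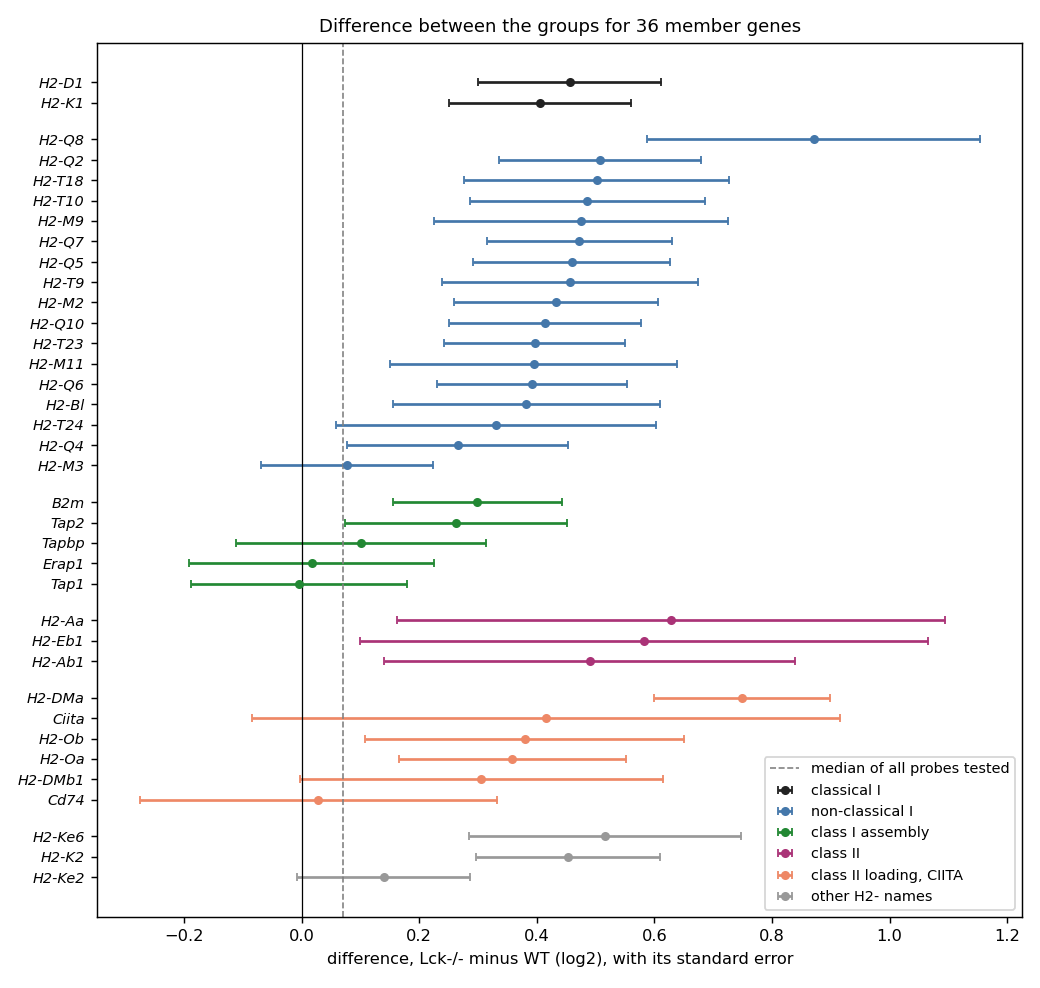
Difference between the groups (Lck-/- minus WT, log2, horizontal axis) for the 36 member genes tested, 1 probe each, ordered by size within 6 groups, with points for the limma estimate, bars for its standard error (n = 4 WT and 3 Lck-/-) and a dashed line for the median of all probes tested, 0.07. All 19 class I heavy chain genes lie right of 0, the 5 assembly genes span -0.0045 to 0.30, and the class II chains have the widest bars among the chain genes.

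Both classical class I genes, which encode the heavy chains that present peptide to most CD8 T cells, read higher on every Lck-/- array than on any WT array, by about 1.35-fold. H2-K1 (probe A_51_P198434, mm9 chr17:34133055-34133114) encodes the K heavy chain, which presents SIINFEKL to the OT-1 receptor. It read 7.78, 8.08, 7.81 and 8.08 on WT 1 to 4 and 8.48, 8.21 and 8.33 on Lck-/- 1 to 3. WT 1 and WT 3 were the low arrays and Lck-/- 1 the high one, and the groups did not overlap. The difference was 0.41 (SE 0.15, 1.32-fold, unadjusted p = 0.0313, limma adjusted p = 0.692). A further H2-K1 probe (A_55_P2049647) read 6.70, 7.04, 6.67 and 7.06 on WT 1 to 4 and 7.73, 7.15 and 7.23 on Lck-/- 1 to 3, which again did not overlap, with a difference of 0.50 (SE 0.20). H2-D1 (A_65_P19395, mm9 chr17:35403886-35403945) encodes the D heavy chain. It read 7.32, 7.56, 7.53 and 7.61 on WT 1 to 4 and 8.17, 7.80 and 7.92 on Lck-/- 1 to 3, with WT 1 lowest and Lck-/- 1 highest. Its difference was 0.46 (SE 0.16, 1.37-fold, unadjusted p = 0.0196, limma adjusted p = 0.667). The median of both genes was 0.43, against 0.39 without WT 4 and Lck-/- 1, 0.27 after quantile normalization with or without normexp, and 0.23 with the median of each array as reference, where the median over all probes became -0.13.

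The promoters of these genes are shown because class I and class II genes are known to be driven from different upstream elements. Whether these elements bear on the differences between the groups was not tested. Class I promoters carry an enhancer bound by NF-kB and a site for interferon regulatory factors, and both classes carry X and Y boxes, read by RFX and NF-Y. RefSeq promoter windows (GRCm38.p6, reaching from upstream of a transcription start to just past it) were found for 33 of the 48 names. Capitals mark matches, on either strand, to GGGGATTCC (NF-kB type), CTGATTGG (Y box, printed as CCAATCAG where it lies on the other strand), AGCAAC (the first part of the X box) or GAAANNGAA (interferon type). None of these matches overlap each other in the windows printed.
H2-K1, chr17:34000320-34000470, minus strand: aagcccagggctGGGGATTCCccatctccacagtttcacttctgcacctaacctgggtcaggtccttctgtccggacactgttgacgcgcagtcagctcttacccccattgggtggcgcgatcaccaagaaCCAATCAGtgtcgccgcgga
H2-D1, chr17:35262911-35263060, plus strand: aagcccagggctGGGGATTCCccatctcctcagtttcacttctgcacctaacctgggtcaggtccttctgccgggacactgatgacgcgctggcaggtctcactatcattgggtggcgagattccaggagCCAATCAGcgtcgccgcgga
H2-Q6, chr17:35424665-35424814, plus strand: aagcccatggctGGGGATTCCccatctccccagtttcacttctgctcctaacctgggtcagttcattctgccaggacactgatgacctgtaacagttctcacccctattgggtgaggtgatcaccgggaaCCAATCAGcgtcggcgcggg
H2-T23, chr17:36032734-36032836, minus strand: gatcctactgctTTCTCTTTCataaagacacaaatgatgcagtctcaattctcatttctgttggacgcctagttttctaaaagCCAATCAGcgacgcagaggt
B2m, chr2:122147536-122147568, plus strand: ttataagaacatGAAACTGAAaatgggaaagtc
The NF-kB type match was present in H2-K1, H2-D1, H2-Q6 and H2-Q7. That is 2 of 2 classical and 2 of 18 non-classical genes with a window, against 0.25% of the 32851 promoter windows. A gene was counted if any of its windows matched, while this share and those below are per window. The printed H2-K1, H2-D1 and H2-Q6 windows are alike over most of their letters, so their matches are not independent. The Y box letters were in 2 of 2 classical genes, in 10 of 18 non-classical genes and in Tap1 among 4 assembly genes, against 4.1% of all windows. Whether they mark the Y box of the class I genes or another CCAAT site was not examined. The interferon type match was in B2m, Erap1 and H2-T23, against 8.56% of all windows. These letters are only 1 spelling, so a window without a match may still hold such a site. The H2-K1, H2-D1 and H2-Q6 windows hold tttcacttc, which on the other strand is near this pattern but does not match it. A match is a description of letters, and binding was not measured.

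Non-classical class I genes, the Q, T and M genes of the MHC region, which include ligands of NK and gamma-delta T cell receptors, showed the same direction. Of 26 names 17 could be tested, all with a positive difference (median 0.43, range 0.08 to 0.87). Of these 17, 0 passed after adjustment (limma adjusted p from 0.663 to 0.958), 9 had an unadjusted p under 0.05, all higher on Lck-/- arrays, and the groups did not overlap for 9. These counts stand beside 5.33% and 5.8% of all probes. With the array median as reference the difference of H2-M3 turned to -0.13 and the group median fell to 0.23. Without WT 4 and Lck-/- 1 the group median was 0.53.

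The Q genes include those of Qa-2, a surface molecule expressed on lymphocytes. H2-Q2 (A_51_P219789) read 7.21, 7.49, 7.16 and 7.45 on WT 1 to 4 and 8.11, 7.69 and 7.71 on Lck-/- 1 to 3. Its other probe (A_51_P425048) read 4.85, 4.95, 4.83 and 5.25 against 5.54, 5.32 and 5.56. Both probes had groups that did not overlap and differences of 0.51 (SE 0.17) and 0.50 (SE 0.16). H2-Q5 (A_51_P400752) read 6.54, 6.92, 6.65 and 6.91 on WT 1 to 4 and 7.29, 7.01 and 7.35 on Lck-/- 1 to 3, a difference of 0.46 (SE 0.17). H2-Q6 (A_55_P1978506), a Qa-2 gene, read 5.89, 6.33, 6.07 and 6.31 on WT 1 to 4 and 6.60, 6.43 and 6.58 on Lck-/- 1 to 3. Neither gene's groups overlapped, and WT 1 was the lowest array for both. H2-Q7 (A_55_P1978511), the main Qa-2 gene, read 6.91, 7.29, 7.04 and 7.29 on WT 1 to 4 and 7.63, 7.50 and 7.69 on Lck-/- 1 to 3, a difference of 0.47 (SE 0.16, unadjusted p = 0.0173). H2-Q8 (A_55_P1978465), another Qa-2 gene, read 3.06, 4.09, 3.78 and 4.28 on WT 1 to 4 and 4.65, 4.59 and 4.78 on Lck-/- 1 to 3. Its difference, 0.87 (SE 0.28, 1.83-fold, limma adjusted p = 0.663), was the largest of the 19 heavy chain genes, and it was 0.62 without WT 1, the lowest array.

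The groups overlapped for the remaining Q genes. H2-Q10 (A_55_P1995092), best known as a secreted class I chain of the liver, read 3.32, 3.42, 3.40 and 3.64 on WT 1 to 4 and 3.64, 3.87 and 4.08 on Lck-/- 1 to 3. WT 4 and Lck-/- 1 met at 3.64, and the difference was 0.41 (SE 0.16, unadjusted p = 0.0354). A dimmer H2-Q10 probe (A_55_P2037343) was well above background on 6 of 7 arrays. It ranged from -4.58 to -2.0 on WT arrays and from -2.91 to -1.35 on Lck-/- arrays. The H2-Q10 probes disagreed in level, with means over all arrays of 3.62 and -2.86. H2-Q4 (A_55_P1956302) read 5.27, 5.46, 5.05 and 5.17 on WT 1 to 4 and 5.83, 5.42 and 5.25 on Lck-/- 1 to 3, where only Lck-/- 1 stood above the WT range.

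Among the T genes, H2-T23 (A_51_P237754, mm9 chr17:36167338-36167574) encodes Qa-1, which binds the NKG2A receptor of NK cells and activated CD8 T cells. It read 7.21, 7.35, 7.11 and 7.38 on WT 1 to 4 and 7.87, 7.57 and 7.53 on Lck-/- 1 to 3, without overlap, a difference of 0.40 (SE 0.15). H2-T10 (A_66_P112006), a ligand of some gamma-delta T cell receptors, read 2.09, 2.23, 1.61 and 2.32 on WT 1 to 4 and 2.41, 2.57 and 2.66 on Lck-/- 1 to 3. H2-T9 (A_55_P2088401) read 1.90, 2.16, 1.37 and 2.13 on WT 1 to 4 and 2.23, 2.49 and 2.32 on Lck-/- 1 to 3. In both genes WT 3 was the low array, and the Lck-/- arrays lay above all WT arrays by a small margin. H2-T24 (A_55_P2003996) read -2.09, -1.75, -2.16 and -1.09 on WT 1 to 4 and -1.65, -1.40 and -1.28 on Lck-/- 1 to 3, and it was the only heavy chain gene with its highest value on a WT array. Its dimmer probe (A_55_P2003991) was well above background on 5 arrays, with a difference of 1.23 (SE 0.50). H2-T18 (A_55_P2097789), also well above background on 5 arrays, ranged from -4.47 to -3.72 on WT arrays and from -3.88 to -3.40 on Lck-/- arrays.

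H2-M3 (A_51_P469968), which presents bacterial N-formylated peptides, differed least of the heavy chain genes. It read 2.33, 2.29, 2.10 and 2.22 on WT 1 to 4 and 2.39, 2.12 and 2.43 on Lck-/- 1 to 3, a difference of 0.08 (SE 0.15). H2-M2 (A_51_P191463) read 5.26, 5.69, 5.75 and 5.61 on WT 1 to 4 and 6.16, 5.82 and 6.06 on Lck-/- 1 to 3, without overlap. Its dim probe (A_55_P2135064) was well above background on 6 arrays. It ranged from -4.60 to -2.77 on WT arrays and from -3.19 to -1.30 on Lck-/- arrays, which overlapped. The H2-M2 probes disagreed in level, with means over all arrays of 5.77 and -3.07. Which transcript the bright probe reads was not tested, and H2-M2 is counted here by that probe. H2-M11 (A_55_P1998937) read -1.20, -0.76, -1.55 and -0.84 on WT 1 to 4 and -0.98, -0.73 and -0.36 on Lck-/- 1 to 3. H2-M9 (A_55_P2166148), near the detection limit, ranged from -4.42 to -3.76 on WT arrays and from -4.20 to -3.38 on Lck-/- arrays. H2-Bl (A_55_P1981494), for which the files give no position, read 3.40, 3.96, 3.52 and 4.04 on WT 1 to 4 and 3.98, 3.89 and 4.46 on Lck-/- 1 to 3. The groups overlapped for H2-M3, H2-M11, H2-M9 and H2-Bl.

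**Figure D2:**
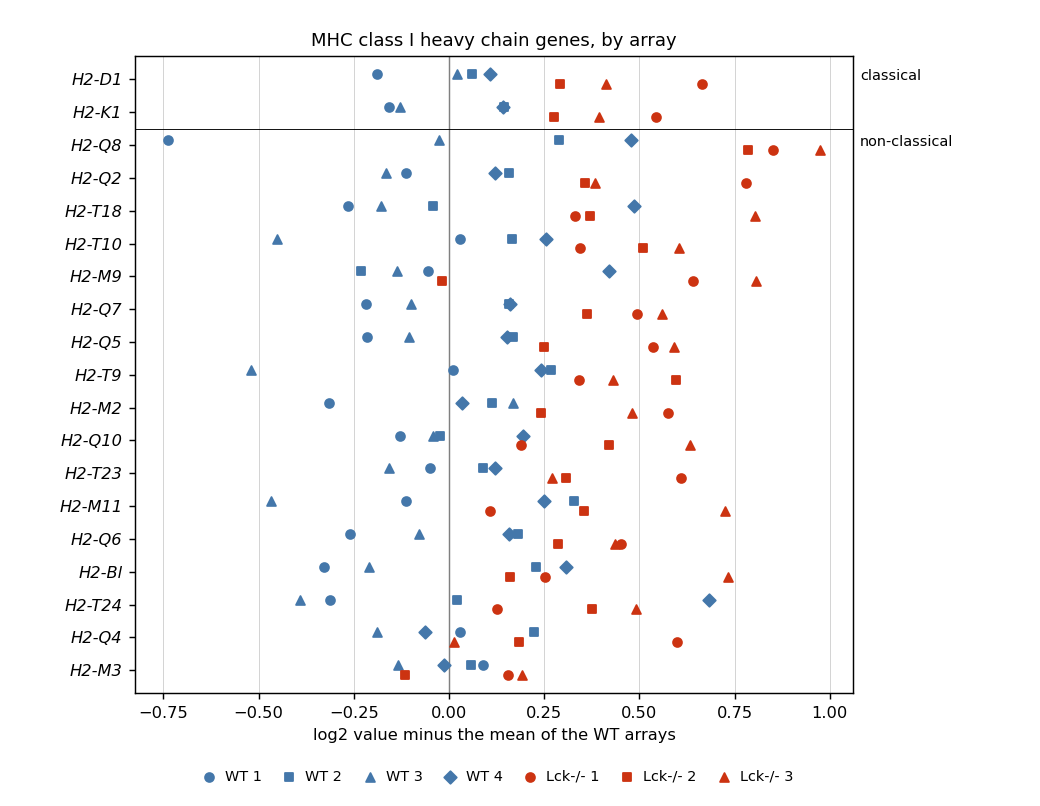
Value of each of the 19 class I heavy chain genes on each array as log2 minus the mean of the 4 WT arrays (horizontal axis), with WT arrays in blue above and Lck-/- arrays in red below the line of each gene and 1 marker shape per replicate number. In 11 of the 19 genes all red points lie to the right of all blue points, an order found for 5.8% of all probes. The leftmost point is WT 1 for 10 genes and WT 3 for 8.

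Across the 19 heavy chain genes of both kinds, the lowest array was WT 1 for 10 genes, WT 3 for 8 and WT 2 for 1, and the highest was Lck-/- 3 for 10, Lck-/- 1 for 7, Lck-/- 2 for 1 and WT 4 for 1. The median over these genes, relative to each gene's WT mean, was -0.16, 0.16, -0.14 and 0.16 on WT 1 to 4 and 0.49, 0.31 and 0.49 on Lck-/- 1 to 3. The same median over all probes tested was -0.15 on WT 3 and 0.03 to 0.10 on the other 6 arrays. WT 2 and WT 4 lay between the other WT arrays and the Lck-/- arrays. Of the 19 genes, 11 had an unadjusted p under 0.05 with limma, all higher on Lck-/- arrays, against 5.33% of all probes. This count was 3 without WT 1, 5 without WT 3, 4 without Lck-/- 1, 4 without Lck-/- 3 and 6 without both WT 4 and Lck-/- 1. The difference was positive for every heavy chain gene tested under each setting tried except the array median as reference, where it was positive for 18 of 19. Median differences varied with signal strength over all probes. Among the 1865 probes with a mean above 6, where 7 of the heavy chain genes lie, the median difference was 0.11 and 81.1% were positive. It was 0.02 for the 2443 probes between 4 and 6, where 3 heavy chain genes lie. For the 4233 probes between 2 and 4, where 5 heavy chain genes lie, it was -0.0085 and 47.7% were positive. Dim probes were shifted up, as the brightest were. The median difference was 0.14 for the 7204 probes between -4 and -2, where 2 heavy chain genes lie, and 68.4% were positive. Below -4 it was 0.32 for 3489 probes, of which 75.7% were positive.

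Class I heavy chain genes are close relatives, and signal of 1 gene can be read by the probe of another. Among the 40 probes named for class I heavy chains or H2-K2, each of 60 bases, 3 of 769 pairs of probes for different genes shared a run of at least 20 bases, and the median longest run was 6 bases. The pairs are shown because the values of their genes may not be independent.
H2-K1 (A_55_P2049647) and H2-T23 (A_51_P237754): TGGAGCTGTGGTGGCTTTTGTGATGAAGA
H2-K2 (A_51_P502456) and H2-Q7 (A_55_P1978511): TCTCCTGTGACATCCAGAGCCCTCAGTT
H2-Q10 (A_55_P2037343) and H2-T3 (A_55_P1956048): TTGTGGAGGAAATAAATGGCAG
All letters of these lines are shared by both probes, over 29, 28 and 22 bases. Binding of 1 transcript to probes of another gene was not tested, and the runs do not cover it where bases differ in between. Probes were compared only with each other, not with the transcripts of other genes. Probes for different stretches of related genes can share no run and still read the same transcript. The small number of shared runs therefore cannot show that the genes were read independently.

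The genes that assemble class I molecules differed less. B2m (A_51_P129012, mm9 chr2:121978401-121978460), the light chain of all class I molecules, read 8.00, 7.96, 7.82 and 7.92 on WT 1 to 4 and 8.42, 8.14 and 8.11 on Lck-/- 1 to 3. The groups did not overlap, with WT 1 and Lck-/- 3 the closest arrays, and the difference was 0.30 (SE 0.14, unadjusted p = 0.0719, limma adjusted p = 0.746). Tap1 (A_51_P100327) and Tap2 (A_55_P2017645) form the peptide transporter. Tap1 read 3.41, 3.41, 2.89 and 3.44 on WT 1 to 4 and 3.28, 3.14 and 3.43 on Lck-/- 1 to 3, a difference of -0.0045 (SE 0.18) whose sign changed with the setting. Tap2 read 5.65, 5.63, 5.10 and 5.67 on WT 1 to 4 and 5.63, 5.95 and 5.74 on Lck-/- 1 to 3, a difference of 0.26 (SE 0.19). Both TAP genes were low on WT 3, and the other 3 WT arrays lay within 0.05 of each other.

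Tapbp (A_55_P2149763), encoding tapasin, which holds class I molecules at the transporter, read 4.53, 4.79, 4.01 and 4.41 on WT 1 to 4 and 4.37, 4.76 and 4.47 on Lck-/- 1 to 3. Erap1 (A_65_P04284), which trims peptides in the endoplasmic reticulum, read 0.37, 0.46, -0.13 and 0.28 on WT 1 to 4 and -0.06, 0.52 and 0.34 on Lck-/- 1 to 3. WT 3 was the lowest array in all 5 assembly genes, and the groups overlapped in all but B2m. The median over all probes was low on that array too, at -0.15 relative to the WT mean against 0.03 to 0.06 on the other WT arrays. The differences of Tapbp and Erap1 were 0.10 (SE 0.21) and 0.02 (SE 0.21). The median of the 5 genes was 0.10, near the 0.07 of all probes, and it was -0.04 without WT 3, 0.07 without Lck-/- 2, 0.18 without Lck-/- 1, 0.22 without WT 2, 0.19 without WT 4 and Lck-/- 1, and -0.10 with the array median as reference. Whether the assembly genes differed less than the heavy chain genes was not tested.

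The other genes of the class I pathway were taken from a list of 19, all of which could be tested. With limma 0 passed after adjustment, and 5 were higher at an unadjusted p under 0.05 and 0 lower, against 5.33% and 1.47% of all probes. Of the 19 differences 14 were positive, against 62.1% of all probes, and the median was 0.20. Psmb8 and Psmb10, catalytic subunits of the immunoproteasome, which makes class I peptides, were among the 5. Psmb8 read 6.46, 6.26, 6.30 and 6.38 on WT 1 to 4 and 7.05, 6.90 and 6.91 on Lck-/- 1 to 3, a difference of 0.60 (SE 0.13, limma adjusted p = 0.636). Psmb10 read 5.58, 5.48, 5.49 and 5.50 on WT 1 to 4 and 6.03, 5.86 and 5.81 on Lck-/- 1 to 3, a difference of 0.39 (SE 0.13). Neither gene's groups overlapped. Psmb9, the remaining catalytic subunit, named after its values were seen, differed by 0.12 (SE 0.15), with overlap. Fcgrt, the neonatal Fc receptor, differed by 0.88 (SE 0.29) but was well above background on only 2 of 4 WT arrays. Psme2 and Psme1, which form the PA28 proteasome activator, differed by 0.12 (SE 0.13) and 0.28 (SE 0.18). Nlrc5, the class I transactivator, was also among the 5 and is named after its values were seen. It read 4.21, 3.63, 4.15 and 4.38 on WT 1 to 4 and 4.53, 4.54 and 4.69 on Lck-/- 1 to 3, a difference of 0.49 (SE 0.20, limma adjusted p = 0.722).

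Class II chains had larger differences with larger errors, and no class II chain gene separated the groups. H2-Aa and H2-Ab1 encode the alpha and beta chain of the I-A molecule, and H2-Eb1 the beta chain of I-E. H2-Aa (A_52_P343306, mm9 chr17:34421285-34421344) read -1.93, -0.67, -1.59 and -0.38 on WT 1 to 4 and -1.21, 0.24 and -0.58 on Lck-/- 1 to 3, a difference of 0.63 (SE 0.47). H2-Eb1 (A_55_P2156731, mm9 chr17:34453075-34453134) read 0.73, 2.11, 1.25 and 2.20 on WT 1 to 4 and 1.21, 2.83 and 2.42 on Lck-/- 1 to 3, a difference of 0.58 (SE 0.48). In both genes WT 2, WT 4, Lck-/- 2 and Lck-/- 3 were high and WT 1, WT 3 and Lck-/- 1 low, whatever the label. H2-Ab1 (A_55_P1962747, mm9 chr17:34406296-34406355) read 1.32, 2.65, 2.83 and 2.50 on WT 1 to 4 and 2.83, 2.93 and 2.68 on Lck-/- 1 to 3. There only WT 1 stood apart, and the other 6 arrays lay between 2.50 and 2.93. A further H2-Ab1 probe (A_55_P2146560) showed the same order of WT 1 below the rest, with 1.25 against 2.40 to 2.83.

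The difference of H2-Ab1 was 0.49 (SE 0.35) and became 0.15 without WT 1. For the 3 chain genes, 0 had an unadjusted p under 0.05 (limma adjusted p from 0.836 to 0.865), and the median difference was 0.58. That median was 0.25 without Lck-/- 2, 0.30 without WT 1, 0.98 without Lck-/- 1, 1.23 without both WT 4 and Lck-/- 1, and 0.38 with the array median as reference. The spread within a group was larger than for class I: the median SD was 0.71 over WT and 0.73 over Lck-/- arrays, against 0.21 and 0.19 for the 19 heavy chain genes. H2-Ea-ps, whose name marks a pseudogene of the I-E alpha chain, and H2-Eb2 did not rise above background on enough arrays to be tested.

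Promoter windows of H2-Aa and H2-Eb1 are shown for comparison with those of class I. Capitals mark the Y box, and in H2-Eb1 also the first part of the X box.
H2-Aa, chr17:34287855-34287934, minus strand: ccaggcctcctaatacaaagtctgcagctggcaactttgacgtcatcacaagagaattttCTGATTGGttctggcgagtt
H2-Eb1, chr17:34305763-34305824, plus strand: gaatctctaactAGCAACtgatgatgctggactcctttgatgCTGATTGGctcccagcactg
The Y box was in 3 of 3 class II genes with a window and, among 5 loading genes, in H2-Oa. Cd74 was not among these 5, since its chromosome was left out. AGCAAC was in 2 of the 3 (H2-Eb1 and H2-Eb2), in H2-Oa and H2-Ob, in the non-classical class I genes H2-T23 and H2-M3, and in 14.8% of all windows. The H2-Aa window holds ggcaac, which differs in its first base and was not counted. GGGGATTCC and GAAANNGAA were in 0 of the 3, which says only that these letters are not in the windows.

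The genes that load class II molecules did not move as 1 block. H2-DMa (A_51_P473734, mm9 chr17:34274300-34274863), the alpha chain of the DM exchange factor that removes the invariant chain peptide, read -0.46, -0.42, -0.40 and -0.58 on WT 1 to 4 and 0.19, 0.14 and 0.51 on Lck-/- 1 to 3. The WT arrays lay close together and all Lck-/- arrays above them. The difference was 0.75 (SE 0.15, 1.68-fold, unadjusted p = 0.00116, limma adjusted p = 0.636), the smallest unadjusted p among the members, and it stayed between 0.63 and 0.82 when any single array was left out. H2-DMb1 (A_51_P278868), a beta chain of the same dimer, read -2.40, -1.55, -2.17 and -1.72 on WT 1 to 4 and -2.11, -1.05 and -1.82 on Lck-/- 1 to 3. Its groups overlapped, with WT 1, WT 3 and Lck-/- 1 the lowest arrays as in H2-Aa, and its difference of 0.31 (SE 0.31) was -0.00046 without Lck-/- 2.

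H2-Oa and H2-Ob form DO, an inhibitor of DM. H2-Oa (A_51_P449325) read 0.18, 0.44, -0.28 and -0.0028 on WT 1 to 4 and 0.53, 0.48 and 0.31 on Lck-/- 1 to 3. H2-Ob (A_66_P130916) read -2.31, -1.52, -1.66 and -2.03 on WT 1 to 4 and -1.31, -2.01 and -1.19 on Lck-/- 1 to 3. Both overlapped, with differences of 0.36 (SE 0.19) and 0.38 (SE 0.27). The probes of H2-Ob disagreed: a further one (A_55_P2082929) read 0.26 on WT 3 and -4.03 to -1.90 on the other 6 arrays, with a difference of -0.02 (SE 1.00).

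Cd74 (A_51_P284608) encodes the invariant chain that guides class II molecules to endosomes. It read 1.59, 2.04, 1.52 and 2.32 on WT 1 to 4 and 1.41, 2.49 and 1.79 on Lck-/- 1 to 3, a difference of 0.03 (SE 0.30). Lck-/- 1 was the lowest array of all and Lck-/- 2 the highest. Ciita (A_55_P2179074), the class II transactivator, was well above background on 2 of 4 WT and all 3 Lck-/- arrays. It read -4.05, -4.16, -3.05 and -3.98 on WT 1 to 4 and -3.63, -2.21 and -4.33 on Lck-/- 1 to 3. Its difference of 0.42 (SE 0.50) rested on Lck-/- 2 and was -0.17 without it. The median of the 6 loading genes was 0.37, and it was 0.17 without Lck-/- 2, 0.45 without both WT 4 and Lck-/- 1, 0.16 with the array median as reference, 0.19 with normexp and quantile normalization, and 0.21 in the deposited values. The other genes of the class II pathway were a list of 16, all tested. With limma 0 passed after adjustment, and 0 were higher and 1 lower at an unadjusted p under 0.05, against 5.33% and 1.47% of all probes. Of the 16 differences 8 were positive, against 62.1% of all probes, and the median was 0.01. The lower gene was March8, a ubiquitin ligase that takes class II off the surface, at -0.37 (SE 0.16). Nfyc, a subunit of NF-Y, and the endosomal protease Ctsb differed by -0.18 (SE 0.20) and -0.14 (SE 0.16).

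**Figure D3:**
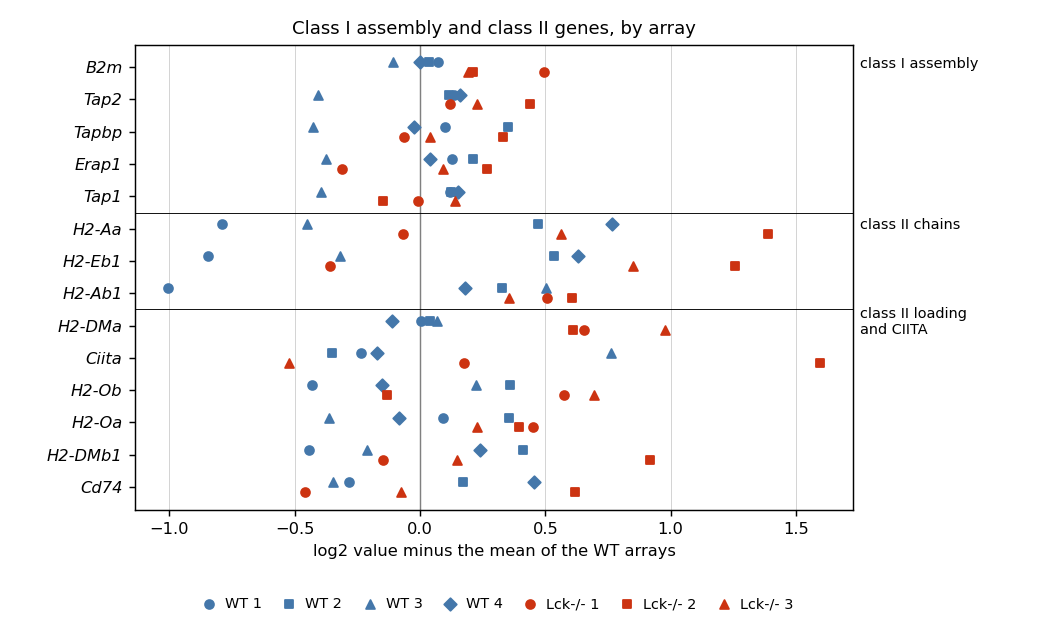
Value of each class I assembly, class II chain and class II loading gene on each array as log2 minus the mean of the 4 WT arrays (horizontal axis), with WT arrays in blue and Lck-/- arrays in red and 1 marker shape per replicate number. Only B2m and H2-DMa have all red points to the right of all blue points. WT 1 lies at the far left for the 3 class II chains, and WT 3 for the 5 assembly genes.

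Markers of cells that make class II also differed between arrays, only in part in the order of the class II chains. In bulk RNA, fewer cells of a type and less RNA per cell cannot be told apart. Of the dendritic cell and macrophage list, 22 genes were on the array and 15 could be tested. C1qa, C1qc, Cd209a, Clec10a, Clec9a, Fcgr1 and Xcr1 could not, being too dim. The median over the 15, relative to the WT mean, was -0.45, 0.26, -0.03 and 0.02 on WT 1 to 4 and 0.12, 0.70 and 0.42 on Lck-/- 1 to 3. Class II chains had medians of -0.84, 0.47, -0.32 and 0.63 on WT 1 to 4 and -0.07, 1.26 and 0.56 on Lck-/- 1 to 3. By these medians WT 1 was lowest and Lck-/- 2 highest for both, while WT 4 was high for the class II chains only. The summed signal of 10 of the markers, given below, was nevertheless highest among the WT arrays on WT 4, at 5.03. Within the list 0 of 15 passed after adjustment with limma. The median difference was 0.22, and 13 differences were positive, against 62.1% of all probes.

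Single markers of that list, of which Fscn1 and Ccl17 were chosen after their values were seen, did not all follow the class II chains. Fscn1, an actin bundler of mature dendritic cells, read -1.89, -0.10, -1.45 and -0.12 on WT 1 to 4 and -1.54, -0.12 and -0.59 on Lck-/- 1 to 3. Ccl17, a chemokine of dendritic cells, read -0.75, -0.21, 0.14 and 1.49 on WT 1 to 4 and -0.62, 1.75 and 0.83 on Lck-/- 1 to 3. Like H2-Aa and H2-Eb1, Fscn1 was low on WT 1, WT 3 and Lck-/- 1. Batf3, a transcription factor of dendritic cells and activated T cells, also named after its values were seen, ran the other way, with 4.01, 1.96, 3.82 and 2.71 on WT 1 to 4 and 3.48, 2.67 and 2.70 on Lck-/- 1 to 3. Itgam was highest on WT 3, at 3.87. By the naming rule, Siglech and Itgam, the list's brightest probes, differed by 0.22 (SE 0.22) and 0.21 (SE 0.24). The probes of both genes disagreed in level. Siglech had a mean of 7.44 here, but -4.68 and -6.02 with probes A_55_P2141008 and A_55_P2165790, both too dim to be tested. Itgam had a mean of 3.40 here, but -3.01 and -3.50 with probes A_55_P1977926 and A_55_P1977929. Cd68, a macrophage lysosomal protein with no value on WT 3 (an outlier spot), differed by 0.51 (SE 0.15, limma adjusted p = 0.654). Emr1, the F4/80 antigen, differed by 0.71 (SE 0.26) and was well above background on 1 of 4 WT arrays.

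The summed linear signal of 12 markers of the list was taken without Siglech, in multiples of the 75th percentile. It was 16.1 to 31.1 on WT and 22.0 to 26.0 on Lck-/- arrays. With the bright Siglech probe, with which the dim ones disagreed, it was 170 to 212 and 182 to 289. Most of the sum without Siglech came from Batf3 and Itgam. The sum of the other 10 markers was 1.57, 3.16, 2.40 and 5.03 on WT 1 to 4 and 1.89, 6.09 and 3.68 on Lck-/- 1 to 3, highest on WT 4 and Lck-/- 2. The part of these cells in the class II values was not tested. Of 10 B cell markers, 5 were too dim to be tested, among them the defining Ms4a1 and Pax5 with Blk and Ebf1, in mice without Rag. The list median was -0.08, -0.01, -0.32 and 0.21 on WT 1 to 4 and 0.45, 0.24 and 0.39 on Lck-/- 1 to 3, lowest on WT 3 and highest on Lck-/- 1, unlike the class II chains. The differences of the 5 tested genes were all above 0 (median 0.48), against 62.1% of all probes. With limma 0 of the 5 had an unadjusted p under 0.05. Cd79b and Cd22 differed by 0.53 (SE 0.24) and 0.34 (SE 0.17), and the summed signal of 4 markers was 1.24 to 1.97 on WT and 1.95 to 2.43 on Lck-/- arrays.

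Of the 11 NK cell markers, all tested, 0 passed after adjustment and 0 had an unadjusted p under 0.05 with limma. All 11 differences were positive, against 62.1% of all probes, with a median of 0.95. The list median was -0.81, 0.00, -0.54 and 1.44 on WT 1 to 4 and 0.61, 2.10 and 0.55 on Lck-/- 1 to 3. WT 4 and Lck-/- 2 were the high arrays there, which holds for Cd74 and H2-Aa too but not for the heavy chain genes, where Lck-/- 2 was the lowest of the Lck-/- arrays by median. The summed signal of 9 NK markers was 1.07 to 4.91 on WT and 2.31 to 7.58 on Lck-/- arrays. Cd244 and Fcer1g, the brightest of them, differed by 0.26 (SE 0.27) and 0.20 (SE 0.55). The part of NK cells in the member values was not tested. All 6 CD8 T cell markers had positive differences too, with a median of 0.17 and 0 at an unadjusted p under 0.05, with 0.06 (SE 0.16) for Cd3d and 0.21 (SE 0.39) for Cd3e.

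**Figure D4:**
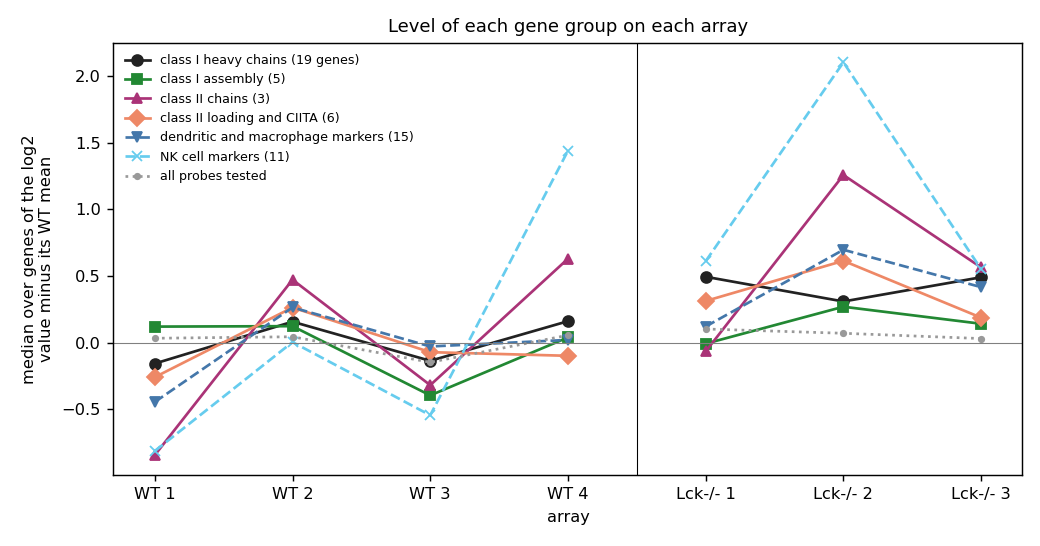
Median over the genes of a group of the log2 value minus its WT mean (vertical axis) on each array (horizontal axis), with solid lines for member groups, dashed lines for dendritic and macrophage markers and for NK markers, a dotted line for all probes tested, and lines that only join the points of a list, since arrays have no order. The heavy chain line is at 0.31 to 0.49 on Lck-/- arrays and at -0.16 to 0.16 on WT arrays. The class II chain line runs from -0.84 to 0.63 on WT and from -0.07 to 1.26 on Lck-/- arrays and overlaps between the groups.

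Set side by side, both kinds of class I heavy chain had nearly the same median difference, 0.43 for the 2 classical and 0.43 for the 17 non-classical genes, while the 3 class II chains had 0.58. The per-array medians did not overlap between the groups for classical genes (-0.17 to 0.12 on WT, 0.28 to 0.60 on Lck-/-) or for non-classical genes (-0.16 to 0.19 on WT, 0.35 to 0.56 on Lck-/-), and they overlapped for class II chains. A difference between these groups of genes was not tested.

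A few names begin with H2- without encoding a chain that is placed in either class here. H2-K2, a class I-like gene beside H2-K1, gave 6.86, 7.17, 6.99 and 7.18 on WT 1 to 4 and 7.67, 7.33 and 7.51 on Lck-/- 1 to 3 with probe A_55_P2051334. Its difference was 0.45 (SE 0.16), and 0.44 (SE 0.15) with its other probe, neither with overlap. H2-Ke6, which encodes a hydroxysteroid dehydrogenase, read 4.32, 3.59, 3.95 and 4.13 on WT 1 to 4 and 4.82, 4.56 and 4.16 on Lck-/- 1 to 3, a difference of 0.52 (SE 0.23). H2-Ke2, a prefoldin subunit, read 5.14, 4.83, 4.83 and 5.09 on WT 1 to 4 and 5.04, 5.19 and 5.11 on Lck-/- 1 to 3, a difference of 0.14 (SE 0.15) that was -0.07 with the array median as reference. H2-Ke6 and H2-Ke2 carry the prefix because they lie in the MHC region, and the groups overlapped for both.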

How the data were processed

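Per the file headers, the deposited scanner files give the spot intensity of 1-colour (Cy3) arrays, made with Agilent Feature Extraction 10.7.3.1 with detrending and surrogate values for dim spots on, and other flags per spot. Per the labels, 50 ng of RNA with an integrity number above 8 was used. The authors' deposited table holds log2 values, and how arrays were brought together in it stays unknown. Each column followed the log2 spot median of its own array (r from 0.9994 to 0.9999), which sets its scale and direction, with column medians from 6.57 to 6.61. It served as an alternative only. The submitters' processing notes name limma.

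Here log2 of the processed signal was set relative to each array's 75th percentile over the 59305 non-control spots. Outlier-flagged spots were left out and spots of a probe averaged. A probe was tested if well above background on at least 3 of 7 arrays, which left 29272 probes, of which 1428 lacked a value. The fit used limma 3.58.1 in R 4.3.3 (lmFit, eBayes) on all probes, with Benjamini-Hochberg adjustment at 0.05. A gene is shown by its tested probe with the highest mean, and other probes are given beside it. Probe positions are those of the files (mm9). Which exon a probe lies in was not analysed here. The members, lists and naming rule (all tested members, and from each list the 2 brightest genes and any at an unadjusted p under 0.05, at most 6) were chosen with earlier results of these data known. Of the 18 alternatives, leaving out both arrays with an Lck signal against their label was added after seeing the data. The procedure was tested on simulated data. No sample was left out of the fit. Some genes of the lists are not reported here.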

Additional observations from a re-analysis of the deposited data

Results flagged for a closer look

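Among the 44 tested member probes, the 4 WT values were examined by Dixon's ratio of the gap to the range for an array far from the other 3, which chance marks in about 1 in 20 groups. This marked 4 probes. Tap1 read 2.891 on WT 3, where the other WT arrays lay between 3.407 and 3.44. Tap2 read 5.104 on WT 3, where the others lay between 5.627 and 5.672. H2-Ab1 (A_55_P2146560) read 1.247 on WT 1, where the others lay between 2.403 and 2.584. Ciita read -3.048 on WT 3, where the others lay between -4.161 and -3.979. The Tap1 and Tap2 values were low on the same array, which also had 1403 non-uniform spots. The part of that array's quality in them was not tested.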

How the results depend on the processing

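No member probe passed the adjusted threshold under any of the 18 alternatives. Over all probes, 7 were called without WT 1 and 47 without both WT 4 and Lck-/- 1, and 0 otherwise. Member probes at an unadjusted p under 0.05 (18) numbered 7 with quantile normalization, 10 with normexp (always followed by quantile normalization), 2 with the array median as reference, 11 with the replicate block, and 6 to 20 when 1 array was left out. Heavy chain genes (11) numbered 4, 6, 1 and 4 under the same settings, 3 to 13 with 1 array left out, and 6 without both arrays. The classical median (0.43) was 0.27 with quantile normalization, 0.27 with normexp and 0.23 with the array median, where the non-classical and heavy chain medians were also 0.23. The sign changed for genes with differences near 0. Tap1 was 0.011 with quantile normalization, 0.011 with normexp, 0.046 with the block, 0.048 without both arrays, and from -0.14 to 0.067 with 1 array left out (positive without WT 1, WT 2, WT 4 or Lck-/- 2). Erap1 was -0.012 with normexp, -0.19 with the array median, -0.037 with the deposited values, and from -0.11 to 0.18 with 1 array left out (negative without WT 3, Lck-/- 2 or Lck-/- 3). Tapbp was -0.10 with the array median, and from -0.041 to 0.22 with 1 array left out (negative without WT 3 or Lck-/- 2). Cd74 was -0.18 with the array median, -0.025 with array weights, and from -0.27 to 0.27 with 1 array left out (negative without WT 1, WT 3 or Lck-/- 2). With the array median H2-Ke2 was -0.065 and H2-M3 -0.13, and with 1 array left out Ciita ran from -0.17 to 0.89 and H2-DMb1 from -0.00046 to 0.53, both lowest without Lck-/- 2. The array median as reference lowers every difference by 0.2 by construction, and the cause of the other changes was not tested. Deviations of arrays sharing a replicate number were unrelated (r = 0.0398, 0.0125 and -0.0209 over 27844 probes), so the numbers were not taken as pairs. The block gave 2603 probes at an unadjusted p under 0.05 against 1991 and 0 calls. Only 4 and 3 arrays per group limit the precision.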
